A study of Homo sapiens with 4 samples.

Results

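Serpins are the genes whose name on the array matched SERPIN, a clade letter from A to I and a number, and 35 of the 43305 named genes measured met that rule. All 35 were matched by the RefSeq accession of their probe to a gene of the same symbol. RefSeq lists 34 of them as protein coding and SERPINA2 as a transcribed pseudogene. The family comprised 11 genes of clade A, 13 of clade B, 3 of clade E, 2 each of clades F and I, and 1 each of clades C, D, G and H.

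The study compared head and neck squamous carcinoma cell lines with derivatives that had been made resistant to cisplatin by stepwise exposure. HN4 and HN30 were the parental lines, grown in DMEM with fetal bovine serum. HN4_CR and HN30_CR, also written HN4/DDP and HN30/DDP, were their resistant derivatives, kept in the same medium with 20 µM cisplatin for 48 h. Total RNA of each of the 4 was hybridised to 1 single-colour Agilent human expression array, all on 1 slide. No group had a second array, so no difference within a line has a replicate check, and the effect of the resistance and that of the drug present in the medium cannot be told apart.

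Serpins share a fold with an exposed reactive centre loop. In an inhibitory serpin a protease cuts that loop, the loop inserts into the body of the serpin, and the protease is left covalently trapped and distorted. Clade A holds mostly secreted plasma proteins, clade B holds intracellular inhibitors that are prominent in squamous epithelium, and some members, in several clades, carry hormones or act as a chaperone or a secreted factor with no inhibitory activity.

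Levels are log2 signal minus the 75th percentile of the same array, so 0 is that percentile and each unit is a doubling. Probe signals that the scanner software did not flag as well above background are called dim here. Of the 35 serpins, 14 were well above background on all 4 arrays, 12 on 1 to 3 arrays and 9 on none. The 9 dim on all 4 arrays were SERPINA4, SERPINA9, SERPINA11, SERPINA12, SERPINB10, SERPINB12, SERPIND1, SERPINE3 and SERPINI2. HN4 had 21 serpins well above background, HN4_CR 23, HN30 19 and HN30_CR 19. The plot of levels by clade shows filled circles on the right for SERPINB1, SERPINB5, SERPINB6, SERPINH1 and SERPINA1 on every array, and open circles for most of clade A.

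**Figure D1:**
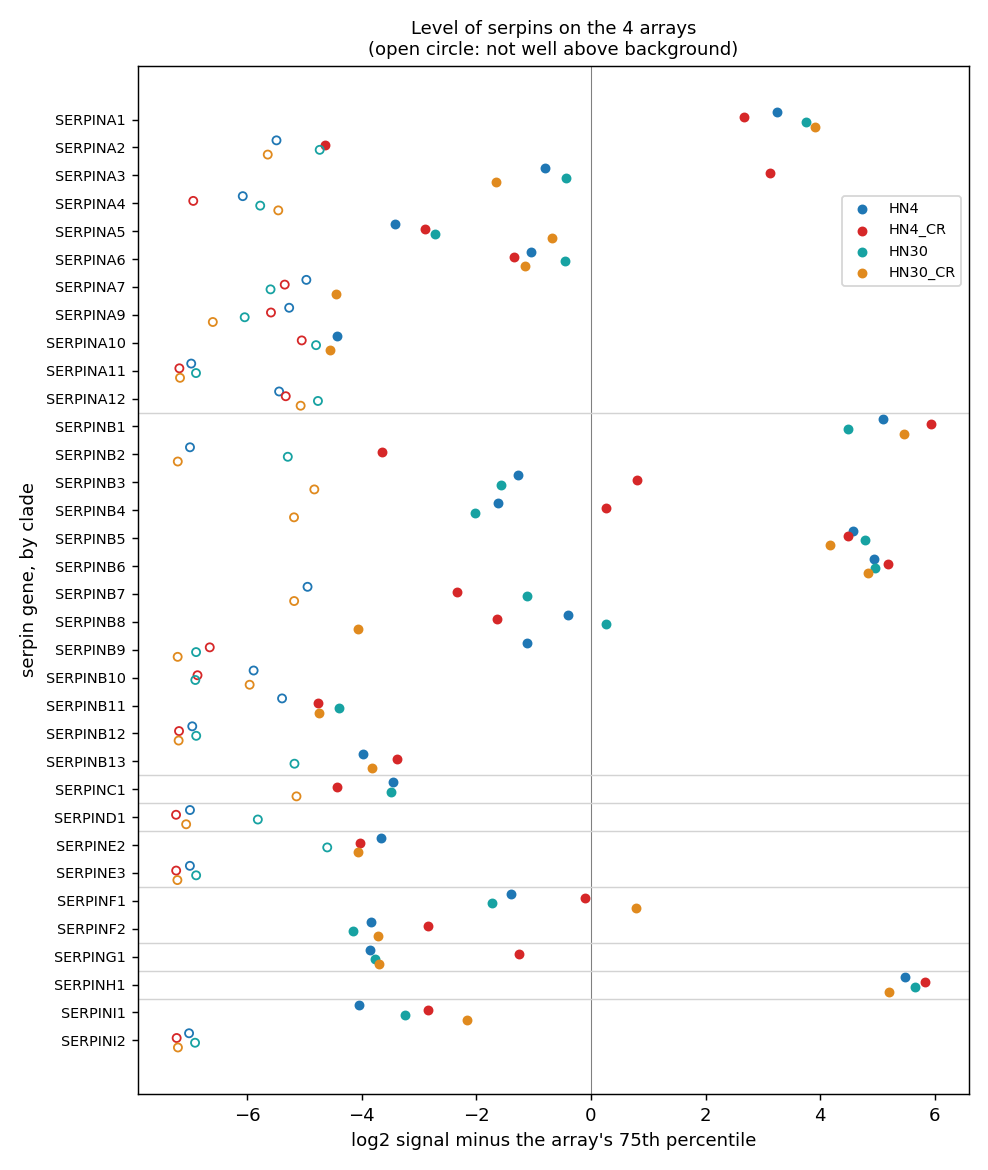
Level of serpins on the 4 arrays, on the log2 scale relative to the array's 75th percentile, with clades separated by lines. Filled circles are well above background and open circles are not; 9 serpins have 4 open circles, and levels of different genes are not comparable because each is read by its own probe.

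A serpin was called higher in a resistant line when its log2 level exceeded that of the parental line by more than 2 and was well above background in the resistant line, and lower when it was below by more than 2 and well above background in the parental line. In HN4_CR, 5 of 35 serpins were called higher, against 2.24% of all genes, and 1 of 35 lower, against 1.36% of all genes. In HN30_CR, 2 of 35 were called higher, against 5.46% of all genes, and 4 of 35 lower, against 1.81% of all genes. Among the 15355 genes with a RefSeq messenger RNA probe and a signal on at least 1 array, the shares were 3.67% and 2.14% in HN4_CR, and 6.92% and 3.18% in HN30_CR. With so few serpins, 1 gene moves these shares by several percentage points.

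Altogether 10 of 35 serpins (28.6%) were called in at least 1 line, against 9.93% of all genes. They were 10 of the 26 serpins with a signal, against 14.2% of the genes with a messenger RNA probe and a signal. With normexp background correction, the serpins called in at least 1 line were SERPINA3, SERPINB8, SERPINB9 and SERPINF1. When a signal was required on both arrays, they were SERPINA3, SERPINA5, SERPINB3, SERPINB8, SERPINF1 and SERPING1. No share of all genes is given here for either setting. None of the 35 was called in the same direction in both lines, which 0.774% of all genes and 1.46% of the genes with a messenger RNA probe and a signal were. SERPINB3 and SERPINB7 were called higher in HN4_CR and lower in HN30_CR, and 0.166% of all genes and 0.274% of those with a messenger RNA probe and a signal were called in opposite directions. The 16 serpins with a signal that were not called had differences from -1.65 to 1.36, and 11 of them stayed within 1 unit in both lines.

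**Figure D2:**
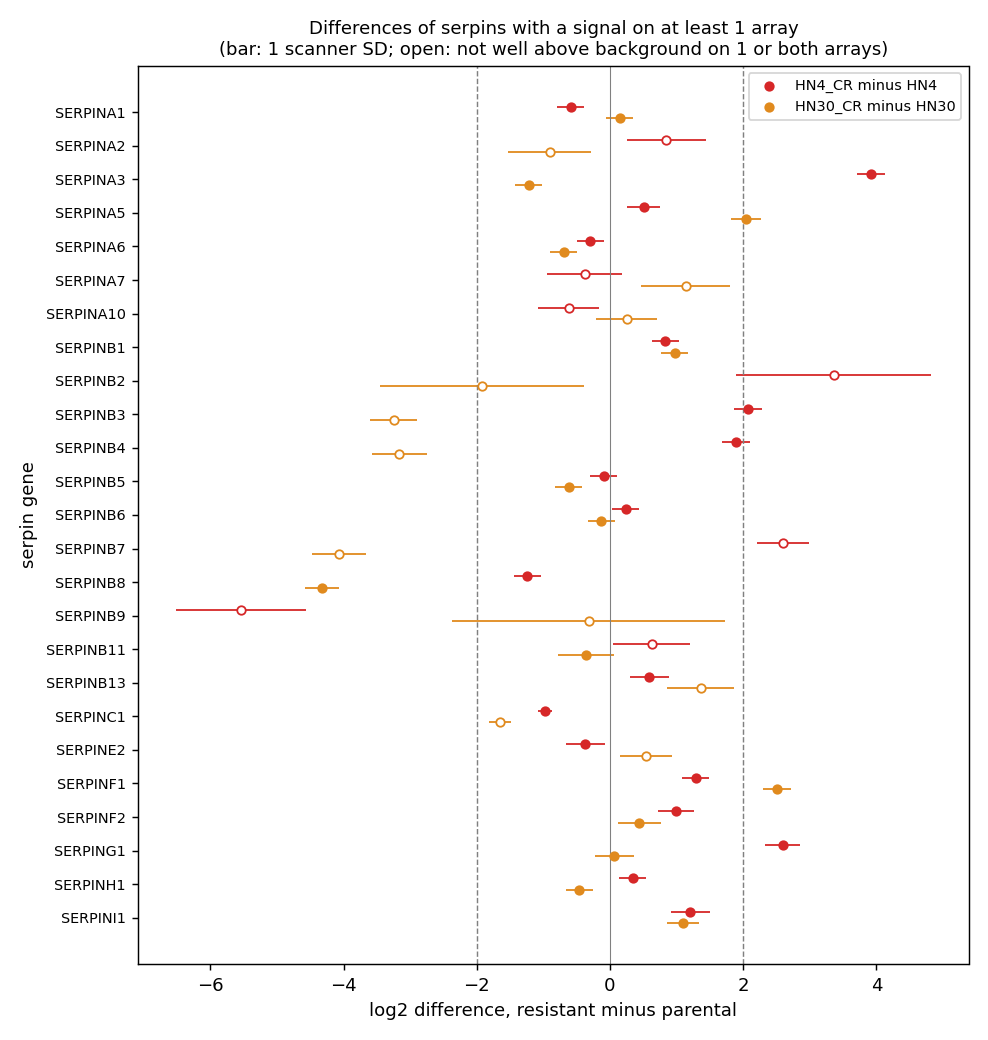
Log2 difference between the resistant and the parental array for serpins with a signal on at least 1 array, with bars of 1 scanner SD and dashed lines at the threshold of 2. SERPINB3 and SERPINB7 lie beyond the lines on opposite sides in the 2 cell lines; open symbols mark differences in which 1 or both arrays were dim.

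The clade B genes of chromosome 18 held 7 of the 12 calls in the main processing, with SERPINB3 and SERPINB7 counted in both lines. They held 1 of 4 with normexp background correction and 2 of 6 when a signal was required on both arrays. These genes make up 10 of the 35 serpins, and 8 of the 26 with a signal on at least 1 array. This cluster has 10 members, whose probes lie within 477 kb, and 5 of them were called in at least 1 line, beside 9.93% of all genes: SERPINB2, SERPINB3, SERPINB4, SERPINB7 and SERPINB8. The probes of SERPINB7, SERPINB2 and SERPINB8 are printed because the signals below rest on them. All 3 are on the plus strand of build hg19. That of SERPINB7 is at chr18:61471776-61471835, that of SERPINB2 at chr18:61570202-61570261, and that of SERPINB8 at chr18:61647137-61648978, a span longer than its 60 bases.
SERPINB7: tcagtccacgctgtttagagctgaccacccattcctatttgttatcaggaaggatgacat
SERPINB2: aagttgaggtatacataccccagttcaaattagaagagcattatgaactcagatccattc
SERPINB8: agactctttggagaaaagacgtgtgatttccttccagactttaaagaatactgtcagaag

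SERPINB7, or megsin, is an inhibitor of the upper epidermis whose loss causes a palmoplantar keratosis. Its level was -4.95 in HN4, -2.35 in HN4_CR, -1.11 in HN30 and -5.18 in HN30_CR. It was dim in HN4 and in HN30_CR, so the gene was well above background in the resistant derivative of one line and in the parent of the other. The difference was 2.60 in HN4_CR (scanner SD 0.40) and -4.07 in HN30_CR (scanner SD 0.40). The scanner SD is the error that the scanner software gave each spot, combined over both arrays, and does not include the spread between cultures. As bounds, SERPINB7 was at least 5.21-fold higher in HN4_CR and at least 14.0-fold lower in HN30_CR, where a dim signal was replaced by the array's lowest bright value if its own was smaller.

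SERPINB3 and SERPINB4 are the squamous cell carcinoma antigens, paralogs of which SERPINB3 inhibits cysteine cathepsins and SERPINB4 chymotrypsin-like proteases. SERPINB3 stood at -1.27 in HN4, 0.80 in HN4_CR, -1.58 in HN30 and -4.83 in HN30_CR, where it was dim. SERPINB4 stood at -1.63, 0.27, -2.02 and -5.18 on the same arrays, also dim in HN30_CR. For each gene the 2 parental lines lay close together, with HN4_CR above them and HN30_CR below. SERPINB3 differed by 2.07 in HN4_CR (scanner SD 0.21; 4.21-fold) and by -3.25 in HN30_CR (scanner SD 0.36; at least 9.50-fold lower). SERPINB4 differed by 1.90 in HN4_CR (scanner SD 0.21), just short of the threshold, and by -3.16 in HN30_CR (scanner SD 0.41; at least 7.45-fold lower). The SERPINB3 probe also lists the accession of SERPINB4, so the signals of these paralogs are uncertain as separate measurements.

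The promoters of SERPINB3 and SERPINB4 are shown because the signals of their probes, which may overlap, had the same direction in both lines. In the RefSeq promoter table of build GRCh38.p14, which holds 300 bases around the start of each gene, they were identical at 296 of 300 positions (98.7%). Counted from 1 at the 5′ end, with the base of SERPINB3 first, the substitutions were G126A, G201A, C228T and T260C, in capitals here. SERPINB3 is at chr18:63661844-63662143 and SERPINB4 at chr18:63644207-63644506, both on the minus strand.
SERPINB3: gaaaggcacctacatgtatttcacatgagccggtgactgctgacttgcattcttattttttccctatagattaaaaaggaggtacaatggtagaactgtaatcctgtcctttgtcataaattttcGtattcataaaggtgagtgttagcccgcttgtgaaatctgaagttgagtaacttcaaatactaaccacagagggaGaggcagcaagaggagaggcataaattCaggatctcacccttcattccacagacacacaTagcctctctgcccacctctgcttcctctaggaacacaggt
SERPINB4: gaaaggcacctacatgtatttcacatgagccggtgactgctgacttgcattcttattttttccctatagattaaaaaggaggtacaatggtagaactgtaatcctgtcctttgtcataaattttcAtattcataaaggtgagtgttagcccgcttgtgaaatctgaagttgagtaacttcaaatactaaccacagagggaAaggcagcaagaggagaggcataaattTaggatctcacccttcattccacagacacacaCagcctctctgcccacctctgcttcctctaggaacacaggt

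SERPINB2, or plasminogen activator inhibitor type 2, inhibits urokinase. Its level was -7.00 in HN4, -3.64 in HN4_CR, -5.29 in HN30 and -7.21 in HN30_CR, and HN4_CR was the array on which it was well above background. The difference of 3.36 in HN4_CR had a scanner SD of 1.46, and the bound was at least 2.12-fold higher. A second SERPINB2 probe was dim on all 4 arrays, and the mean of the 2 probes differed by 1.57, under the threshold.

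SERPINB8, an inhibitor of furin, had a signal on every array and lower values in both resistant lines. It stood at -0.41 in HN4, -1.65 in HN4_CR, 0.26 in HN30 and -4.07 in HN30_CR. The difference was -1.24 in HN4_CR (scanner SD 0.21), not called, and -4.33 in HN30_CR (scanner SD 0.26), a 20.1-fold lower level measured on both arrays. With normexp these differences were -0.95 and -2.79. The other chromosome 18 members were not called. SERPINB5, or maspin, a serpin without inhibitory activity, stood between 4.16 and 4.79 on the 4 arrays. SERPINB13, an inhibitor of lysosomal cathepsins in keratinocytes, differed by 0.59 in HN4_CR and 1.36 in HN30_CR, and was dim in HN30. SERPINB11 differed by 0.62 and -0.36, and was dim in HN4.

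**Figure D3:**
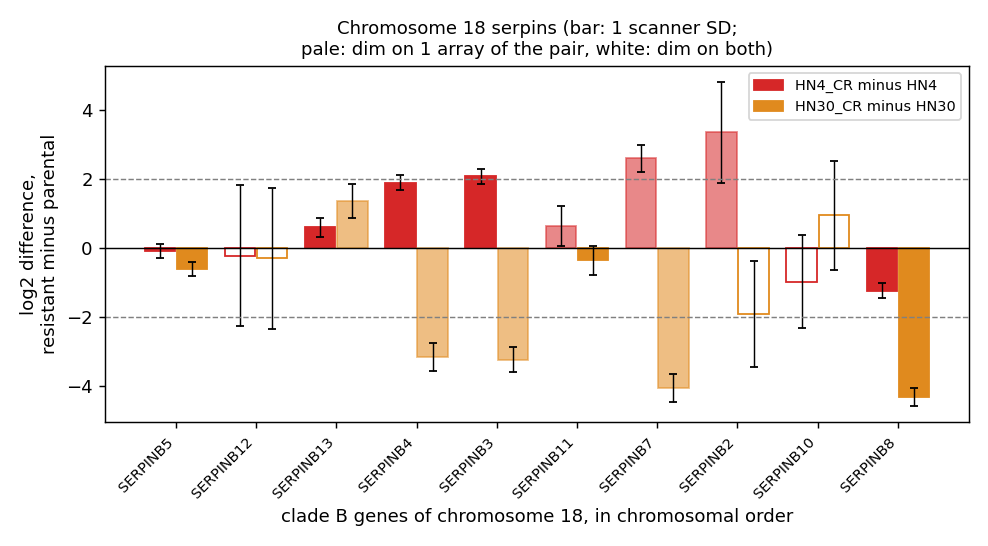
Log2 difference between resistant and parental array for the 10 clade B genes of chromosome 18, in chromosomal order and not to distance, with 1 scanner SD. SERPINB4, SERPINB3, SERPINB11, SERPINB7 and SERPINB2 have bars above 0 in HN4_CR and below 0 in HN30_CR, SERPINB5, SERPINB8 and the dim SERPINB12 have bars below 0 in both, and white bars are dim on both arrays.

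In chromosomal order, 5 of the 10 genes had a positive difference in HN4_CR and a negative one in HN30_CR: SERPINB4, SERPINB3, SERPINB11, SERPINB7 and SERPINB2. The same signs were found in 16.2% of all genes and in 17.5% of those with a signal on at least 1 array. SERPINB2 was dim on both HN30 arrays, and SERPINB11, dim in HN4, turned to -0.04 in HN4_CR when dim signals were set to the lowest bright value and to 0.02 in HN30_CR when arrays were scaled to the 75th percentile of bright probes. The median over the 10 was 0.61 in HN4_CR and -1.27 in HN30_CR, beside -0.20 and -0.07 over all genes. This median is not given under an alternative. With normexp the genes in the middle of the 10 moved. In HN4_CR SERPINB13 then differed by 0.19 and SERPINB11 by 0.04, and in HN30_CR SERPINB5 by -0.58 and SERPINB2 by -0.31. Protein-coding neighbours were looked up after these values were seen. Distances of those outside the cluster are not given here, so they need not lie close to it. On the side of SERPINB5, BCL2 differed by 1.11 and -0.88, KDSR by -0.01 and -0.67, and VPS4B by 0.06 and -0.23, in HN4_CR and HN30_CR respectively. HMSD, which lies within the cluster, differed by -3.93 and -0.74. On the side of SERPINB8, CDH19 differed by -5.12 and -0.81, DSEL by 4.02 and 0.91 with a dim signal in HN4, and CDH7 was dim on all 4 arrays.

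The promoter table held 27 of the 35 serpins, among them 8 of the 10 on chromosome 18. The letters TGANTCA, which read alike on both strands apart from the middle base and are a looser form of the element bound by AP-1 factors, with any middle base, occurred in the promoters of 6 of those 8: SERPINB2, SERPINB5, SERPINB7, SERPINB8, SERPINB12 and SERPINB13. Over all 35116 promoters in the table the share was 7.71%, and over genes 9.37%. SERPINE3 and SERPINI2 were the other serpins that held it. Of these 8 serpins, SERPINB2, SERPINB7 and SERPINB8 were called and SERPINB5, SERPINB12, SERPINB13, SERPINE3 and SERPINI2 were not. The called genes SERPINB3, SERPINB4, SERPINB9, SERPINA3 and SERPINA5 are in the table too and had no such letters in their windows. SERPINF1 and SERPING1, the other called genes, have no entry in the promoter table and were not searched. The form with G or C in the middle was not counted on its own, and the match in the SERPINB2 window below is TGAATCA. A match of letters is a description of the window and does not show a bound site. The promoters of 3 called genes follow, with TGANTCA in capitals, all on the plus strand of GRCh38.p14. That of SERPINB7 is the last of its 3 entries in chromosomal order, at chr18:63777531-63777830, that of SERPINB2 is at chr18:63887455-63887754, and that of SERPINB8 at chr18:63969831-63970130.
SERPINB7: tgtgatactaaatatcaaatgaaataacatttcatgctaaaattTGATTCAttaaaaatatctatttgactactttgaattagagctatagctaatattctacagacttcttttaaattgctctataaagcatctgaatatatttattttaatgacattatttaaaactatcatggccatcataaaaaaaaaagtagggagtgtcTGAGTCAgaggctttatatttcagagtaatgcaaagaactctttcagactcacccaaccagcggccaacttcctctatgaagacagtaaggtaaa
SERPINB2: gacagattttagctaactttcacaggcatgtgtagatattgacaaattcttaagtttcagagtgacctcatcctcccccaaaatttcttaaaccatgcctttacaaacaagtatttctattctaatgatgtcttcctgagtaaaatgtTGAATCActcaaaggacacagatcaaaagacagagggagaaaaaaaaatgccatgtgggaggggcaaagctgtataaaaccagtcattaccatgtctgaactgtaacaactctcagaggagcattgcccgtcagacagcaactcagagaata
SERPINB8: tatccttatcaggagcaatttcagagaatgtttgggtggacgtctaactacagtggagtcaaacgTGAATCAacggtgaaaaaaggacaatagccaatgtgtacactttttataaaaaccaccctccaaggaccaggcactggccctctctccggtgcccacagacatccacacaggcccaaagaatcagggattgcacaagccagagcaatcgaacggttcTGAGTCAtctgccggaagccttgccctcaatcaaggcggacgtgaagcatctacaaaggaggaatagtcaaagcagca

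In these windows the matches began 206 and 45 bases before the start in SERPINB7, 102 before it in SERPINB2, and 185 and 28 before it in SERPINB8. The same windows also held TATAAA, found in 11.5% of all promoters and in 14.0% of genes. It was counted on either strand and anywhere in a window, so its place relative to the start is not given. For SERPINB7 that is so in the entry shown, chosen because it holds both. Of its other 2 entries the first holds neither and the second holds TGANTCA but not TATAAA. In the promoter table TATAAA occurred in 10 of 27 serpins. Those on chromosome 18 were SERPINB2, SERPINB7, SERPINB8 and the uncalled SERPINB12 and SERPINB13. The full cyclic AMP response element TGACGTCA, present in 1.85% of all promoters, occurred in no serpin promoter of the table. Its shorter form TGACG, which is contained in it, was counted on either strand and found in those of 5 of the 27 serpins. The share was 24.6% over all promoters and 28.4% over genes. SERPINB2 was the called gene among these 5.

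The clade B genes of chromosome 6 are SERPINB1, SERPINB6 and SERPINB9. SERPINB9, the inhibitor of granzyme B that protects cells from cytotoxic granules, stood at -1.12 in HN4, -6.65 in HN4_CR, -6.89 in HN30 and -7.21 in HN30_CR. Only in HN4 was it well above background. It was called lower in HN4_CR, with a difference of -5.54 (scanner SD 0.98) and a bound of at least 14.2-fold. With normexp this difference was -2.12. Both HN30 arrays were dim. SERPINB1, an inhibitor of neutrophil elastase, cathepsin G and proteinase-3, had levels of 5.10, 5.93, 4.48 and 5.45 in HN4, HN4_CR, HN30 and HN30_CR, higher by 0.83 and 0.97 and not called. SERPINB6, a broad intracellular inhibitor, stood between 4.83 and 5.18 on its brighter probe, and its second probe differed by 0.16 and -0.19.

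Over the 13 clade B genes the median difference was 0.59 in HN4_CR and -0.36 in HN30_CR. Over the 11 and 9 of them with a signal on at least 1 array of the pair it was 0.62 and -0.62, where all genes treated alike gave -0.07 and 0.05. The sign of both clade B medians with a signal was kept under every scaling tried, with ranges of 0.24 to 0.68 and of -1.03 to -0.24 over all alternatives.

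Clade A lies mainly in a cluster on chromosome 14, which holds 10 of its 11 genes, with SERPINA7 on chromosome X. SERPINA3, or alpha-1-antichymotrypsin, is an acute phase inhibitor of cathepsin G and mast cell chymase. Its level was -0.80 in HN4, 3.12 in HN4_CR, -0.44 in HN30 and -1.66 in HN30_CR, well above background on each array. HN4_CR stood apart from the other 3 arrays, with a difference of 3.92 (scanner SD 0.20; 15.1-fold). In HN30_CR the difference was -1.22 (scanner SD 0.21), on the other side of 0 and not called. All 3 of its probes were higher in HN4_CR by more than 2, the brightest by 3.92 and another by 4.21, and lower in HN30_CR, by -0.59, -1.22 and -1.82. The probe with a difference of 4.21 is printed, at chr14:95088682-95088741 on the plus strand of hg19.
SERPINA3: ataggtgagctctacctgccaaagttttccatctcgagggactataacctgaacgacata

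SERPINA5, the protein C inhibitor, was called higher in HN30_CR by a narrow margin. It stood at -3.41 in HN4, -2.91 in HN4_CR, -2.73 in HN30 and -0.69 in HN30_CR. The difference was 0.51 in HN4_CR (scanner SD 0.25) and 2.04 in HN30_CR (scanner SD 0.22; 4.11-fold), and it was under 2 in 5 of the 10 other ways of processing the signals, the lowest being 1.37. SERPINA1, or alpha-1-antitrypsin, the plasma inhibitor of neutrophil elastase, stood between 2.66 and 3.90. SERPINA6, the corticosteroid carrier of plasma, stood between -1.34 and -0.46. SERPINA7, the thyroxine carrier, was well above background in HN30_CR, SERPINA10, which limits factor Xa together with protein Z, in HN4 and HN30_CR, and the pseudogene SERPINA2 in HN4_CR, each close to the lowest such signal. The median over the 11 clade A genes was -0.29 in HN4_CR and -0.28 in HN30_CR. Over the 6 in each line with a signal it was 0.11 and 0.20, and the former turned to -0.11 when dim signals were set to the lowest bright value, and the latter to -0.21 when arrays were scaled to their medians, so clade A had no settled direction in either line.

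SERPING1, or C1 inhibitor, controls the first component of complement and plasma kallikrein. Its brightest probe read -3.85 in HN4, -1.26 in HN4_CR, -3.77 in HN30 and -3.71 in HN30_CR. HN4_CR was higher by 2.59 (scanner SD 0.26; 6.03-fold), while HN30_CR differed by 0.07. Its 4 probes disagreed in size. In HN4_CR 2 further RefSeq probes, dim in HN4, were each at least 12.5-fold higher. The fourth, designed on an Ensembl transcript, was dim in HN4 and at least 1.15-fold higher. The brightest probe, first below, is at chr11:57367781-57367840 and one of these 2 others, second, at chr11:57373891-57373950, both on the plus strand of hg19.
SERPING1 brightest probe: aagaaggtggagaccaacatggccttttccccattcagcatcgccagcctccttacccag
SERPING1 other probe: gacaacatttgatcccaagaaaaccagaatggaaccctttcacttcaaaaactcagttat

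**Figure D4:**
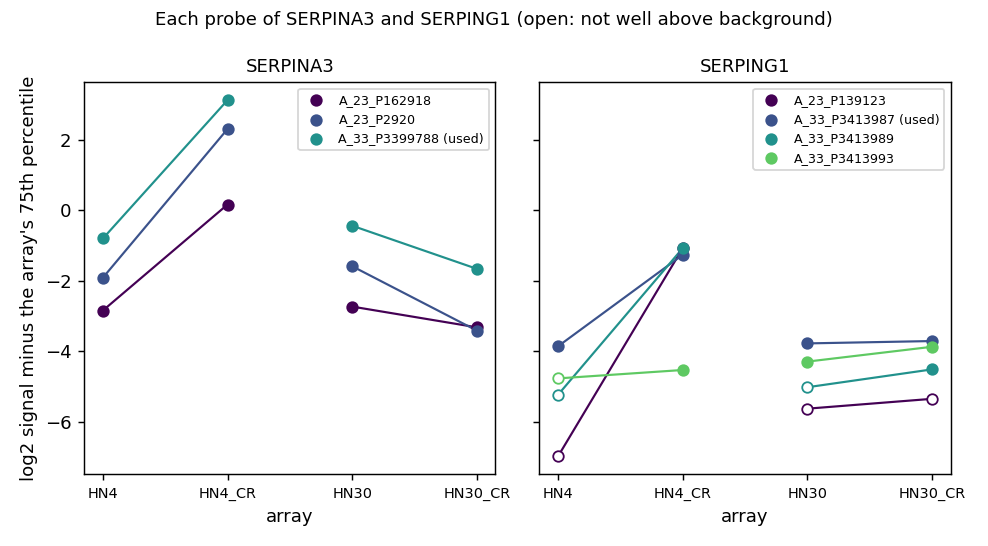
Log2 level of each probe of SERPINA3 and SERPING1 on the 4 arrays, with lines joining a parental line to its resistant derivative. The 3 SERPINA3 probes share a sign in each line with differences of unequal size, and 1 of the 4 SERPING1 probes lies near the lowest bright value in HN4_CR, where the others are well above it; open circles are not well above background.

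SERPINF1, or pigment epithelium-derived factor, is a secreted anti-angiogenic protein without protease inhibition. It stood at -1.39 in HN4, -0.11 in HN4_CR, -1.73 in HN30 and 0.78 in HN30_CR. Both resistant arrays were above both parental arrays, by 1.29 in HN4_CR (scanner SD 0.21), not called, and by 2.51 in HN30_CR (scanner SD 0.21; 5.69-fold), called higher. Its probe is at chr17:1680668-1680727 on the plus strand of hg19.
SERPINF1: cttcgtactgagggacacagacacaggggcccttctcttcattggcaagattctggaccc

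SERPINF2, or alpha-2-antiplasmin, the main plasma inhibitor of plasmin, differed by 1.00 in HN4_CR and 0.44 in HN30_CR. SERPINI1, or neuroserpin, an inhibitor of tissue plasminogen activator, stood at -4.05 in HN4, -2.84 in HN4_CR, -3.25 in HN30 and -2.16 in HN30_CR, above the parent in both lines and not called. SERPINE2, protease nexin-1, an inhibitor of thrombin and urokinase, differed by -0.37 and 0.54 with a dim signal in HN30.

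SERPINC1, or antithrombin, the main inhibitor of thrombin and factor Xa, was read by 10 spots of 1 probe on each array. It stood at -3.46 in HN4, -4.44 in HN4_CR, -3.49 in HN30 and -5.14 in HN30_CR, where it was dim. The difference was -0.97 in HN4_CR (scanner SD 0.11) and -1.65 in HN30_CR, a bound of at least 2.69-fold lower. It was not called, but was called lower in HN30_CR with arrays scaled to their medians (-2.06) and with quantile normalization (-2.13). SERPINH1, or HSP47, the collagen chaperone of the endoplasmic reticulum, had levels of 5.48, 5.82, 5.66 and 5.20 in HN4, HN4_CR, HN30 and HN30_CR, with differences of 0.34 and -0.46. Over the 11 serpins outside clades A and B the median difference was 0.34 in HN4_CR and 0.07 in HN30_CR, and over the 8 with a signal 0.68 and 0.49.

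A linear model of limma over all 4 arrays, resistant against parental with the cell line as a block and 1 residual degree of freedom, asked which genes moved alike in both lines. No gene of 29521 passed an adjusted p of 0.05, and neither did any of the 26 serpins with a signal. Without adjustment, p was under 0.05 for 2486 genes (8.42%) and for 5 serpins: SERPINF1, SERPINB8, SERPINI1, SERPINB1 and SERPINC1. The estimate for SERPINF1 was 1.90 (SE 0.46, limma adjusted p = 0.520), higher in 2 of 2 resistant lines. A miss in a design of this size does not show that the genes were equal.

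The plot of the 12 calls gives each of them under 10 other ways of processing. With normexp background correction and an offset of 50, 2 of 6 calls were kept in HN4_CR, SERPINA3 and SERPINB9. In HN30_CR 2 of 6 were kept, SERPINB8 and SERPINF1. In HN4_CR SERPINA3 then differed by 3.64 and SERPINB9 by -2.12, against -5.54 in the main processing. In HN30_CR SERPINF1 then differed by 2.06 and SERPINB8 by -2.79, against -4.33 in the main processing. SERPINB3 then differed by 1.78 and -1.47, and SERPINB7 by 0.96 and -1.93, with signs as before but no opposite call. The calls lost under normexp included SERPINB3 and SERPING1 in HN4_CR and SERPINA5 in HN30_CR, which were well above background on both arrays of the pair.

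**Figure D5:**
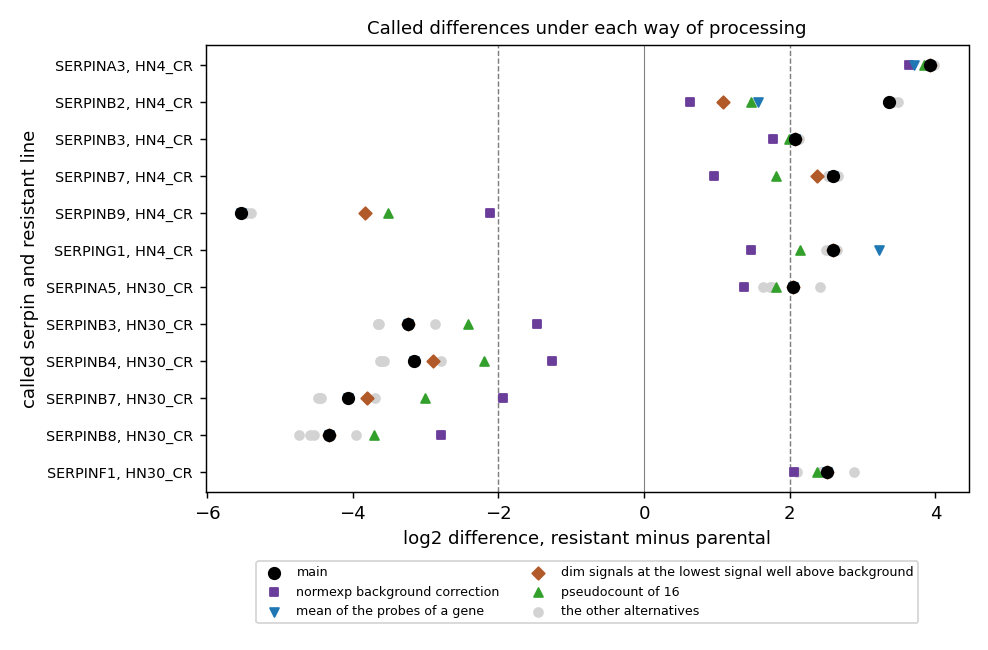
Log2 difference of each called serpin in the main processing (black) and under 10 alternatives, with dashed lines at the threshold of 2. The differences of SERPINA3 in HN4_CR stay between 3.64 and 3.98, whereas that of SERPINB2 in HN4_CR runs from 0.63 to 3.48.

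Between the parental lines, 1 of 35 serpins was higher in HN30, where 0.533% of all genes were, and 1 was lower, where 1.14% of all genes were. Among the genes with a messenger RNA probe and a signal the shares were 0.501% and 1.01%. SERPINB7 was higher in HN30 by 3.83 (at least 12.2-fold) and SERPINB9 lower by -5.78 (at least 11.2-fold). These comparisons share the parental arrays with those above: the parental line in which each was well above background is the one whose resistant derivative was called lower.

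Among 169 genes of 8 related lists, 9 were called higher and 9 lower in HN4_CR, and 16 higher and 3 lower in HN30_CR. Over all genes the shares were 2.24% higher and 1.36% lower in HN4_CR, and 5.46% higher and 1.81% lower in HN30_CR. They are the background of each count below that comes from the main processing. The counts depend on processing. With normexp they were 4 higher and 5 lower in HN4_CR and 2 higher in HN30_CR. With arrays scaled to their medians they were 10 higher and 7 lower in HN30_CR. No share of all genes is given here under normexp or under array medians. Of 15 genes of plasminogen activation, the system that SERPINB2 and SERPINF2 restrain, none was called in HN4_CR and 1 in HN30_CR, the clearance receptor LRP1, with a difference of 2.67. PLAU, which encodes urokinase, stood at 5.44 in HN4, 6.65 in HN4_CR, 5.92 in HN30 and 6.75 in HN30_CR. The median of this list was 0.31 in HN4_CR and -0.21 in HN30_CR, beside -0.20 and -0.07 over all genes.

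Of 18 genes of coagulation and its control, 1 was higher and 1 lower in HN4_CR, and 1 was higher in HN30_CR, with list medians of -0.05 and 0.16. TFPI2, a Kunitz-type inhibitor of plasmin and other proteases, differed by -2.32 in HN4_CR and -1.90 in HN30_CR. The thrombin receptor gene F2RL2 was at least 1.39-fold higher in HN4_CR, and F5, the cofactor of factor Xa, was the gene called in HN30_CR. It was dim in HN30 and below that array's lowest bright value in HN30_CR, so no fold can be given. F2, encoding prothrombin, was dim on all 4 arrays.

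Of 24 cathepsins, granzymes and leukocyte serine proteases, the targets of many clade A and B serpins, 1 was higher in HN4_CR and 3 in HN30_CR, and none was lower, with medians of -0.05 and 0.20. The neutrophil granule gene AZU1 was at least 2.10-fold higher in HN4_CR and PRTN3 differed by 2.51 in HN30_CR. AZU1 and ELANE were the others called in HN30_CR, both dim in HN30, and for AZU1 no fold can be given there, as for F5. CTSA, a lysosomal carboxypeptidase, differed by -0.24 and -0.63. GZMB, the target of SERPINB9, stood at -3.56 in HN4, -3.64 in HN4_CR, -3.52 in HN30 and -3.58 in HN30_CR, and was named after its values were seen.

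Of 20 membrane-anchored serine proteases and genes of HGF activation, 2 were higher and 1 lower in HN4_CR, and 4 were higher in HN30_CR, with medians of -0.22 and 0.46. HPN, encoding hepsin, was at least 9.33-fold higher in HN30_CR, where TMPRSS4 rose to 1.06 from -3.86 in HN30, a difference of 4.92. In HN4_CR the protease gene TMPRSS11F was at least 2.67-fold higher and TMPRSS3 differed by -2.63, where its difference in HN30_CR was 1.44. TMPRSS2 was called higher in both lines, by 2.59 in HN4_CR and 2.60 in HN30_CR. ST14, encoding matriptase, differed by -0.29 and -0.20.

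Of 32 other protease inhibitors measured, 3 were higher and 1 lower in HN4_CR, and 4 were higher and 2 lower in HN30_CR, with medians of -0.14 and -0.05. PI3, or elafin, an elastase inhibitor of stressed epithelium, stood at 0.90 in HN4, 3.88 in HN4_CR, 1.86 in HN30 and -0.73 in HN30_CR. It was called higher by 2.99 in HN4_CR and lower by -2.59 in HN30_CR, the same directions as SERPINB3 and SERPINB7. A2ML1, a keratinocyte inhibitor related to alpha-2-macroglobulin, was at least 1.33-fold higher in HN4_CR and dim on both HN30 arrays. SPINK2 was higher in both lines, by 2.57 and 2.90, and SPINK1 differed by -1.52 in HN4_CR and 2.98 in HN30_CR, both Kazal-type inhibitors. SPINK5 was the gene called lower in HN4_CR, by -2.46, and differed by 0.64 in HN30_CR. SPINT1, an inhibitor of matriptase and HGF activator, differed by 0.29 and 1.06.

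Of 19 collagen folding partners of SERPINH1, 1 was lower in HN4_CR, the lysyl hydroxylase PLOD2 with a difference of -2.20, and none was called in HN30_CR. Their medians were -0.05 and -0.14, and the prolyl hydroxylase P4HA1 differed by -0.65 and 0.57. Of 24 complement genes, the cascade that SERPING1 restrains, 2 were higher in HN4_CR and 3 in HN30_CR, and none was lower, with medians of -0.15 and 0.80. CLU, a chaperone that blocks the membrane attack complex, stood at -3.89 in HN4, 1.34 in HN4_CR, -3.26 in HN30 and -1.11 in HN30_CR. C4B differed by 2.07 and 2.79, a near copy of C4A whose signal is uncertain as its own, and C4BPB was at least 4.31-fold higher in HN30_CR. C1QA was dim in both resistant lines, with bounds of at least 1.28-fold and 1.36-fold lower.

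Of 17 genes of the TGF-beta response, 5 were lower in HN4_CR and 1 in HN30_CR, and none was higher, with medians of -1.06 and -0.09. PMEPA1, a feedback inhibitor of the pathway, stood at 6.43 in HN4, 1.51 in HN4_CR, 5.95 in HN30 and 4.98 in HN30_CR. TGFB2 was at least 7.88-fold lower in HN4_CR, the inhibitory SMAD6 differed by -3.33 and the matrix gene THBS1 by -3.24. TGFB1 differed by 0.61 and 0.17.

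Squamous epithelial markers were read beside the clade B differences. All 15 were well above background in HN4, HN4_CR and HN30, and 13 in HN30_CR, where KRT6A and KRT6B were dim. In HN4_CR 4 were called higher and 2 lower, and in HN30_CR 2 were lower. KRT6A, a keratin of activated epidermis, stood at -2.93 in HN4, 0.40 in HN4_CR, 2.60 in HN30 and -5.85 in HN30_CR, higher by 3.33 in HN4_CR and at least 183-fold lower in HN30_CR. KRT6B, called in HN30_CR, was at least 74.0-fold lower there and differed by -0.34 in HN4_CR. Among other keratins of the list, named after their values were seen, KRT16 differed by 5.26 and 1.81, KRT17 by 3.30 and 0.19, and KRT14 by 2.34 and 0.22. KRT5, the basal keratin, was lower in both lines, by -4.04 and -1.93. DSC3, the other marker called lower in HN4_CR, differed by -2.95 there and by 1.12 in HN30_CR. The median of the list was -0.13 in HN4_CR and -0.06 in HN30_CR. The summed linear signal of the list, in multiples of the array's 75th percentile, was 746 in HN4, 556 in HN4_CR, 948 in HN30 and 461 in HN30_CR, with the highest signal from the S100A2 probe on each. Signals of different probes are not abundances, so these sums and the highest signals below describe the arrays and do not rank genes. The part of these markers in the serpin differences was not tested, and fewer cells of a kind and less RNA per cell cannot be told apart in bulk RNA.

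Of 11 fibroblast markers, 4 were well above background on each array, and COL1A2, COL3A1, DCN, LUM, PDGFRA, THY1 and POSTN were dim on all 4, while the list summed to 8.28, 2.23, 2.85 and 3.29 in HN4, HN4_CR, HN30 and HN30_CR. The highest signal came from the probe of FAP in HN4 and HN30, of COL1A1 in HN4_CR and of COL5A1 in HN30_CR. Of 9 immune cell markers measured, 3, 6, 4 and 5 were well above background on these arrays, with sums of 6.70, 9.81, 3.95 and 40.5. The CD14 probe gave the highest signal on each and differed by 3.48 in HN30_CR, and MS4A1 was dim on all 4.

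Of 6 endothelial markers, 2, 2, 2 and 4 were well above background, with sums from 0.24 to 0.53, the highest signal from the CDH5 probe in both parental lines, from VWF in HN4_CR and from CLDN5 in HN30_CR, and KDR and TEK dim throughout. Of 6 melanocyte markers, 3 were well above background on each array, with sums from 3.45 to 4.50, the highest signal from the MITF probe, and MLANA, TYR and SOX10 dim throughout. Of 8 hepatocyte markers, the cell type that secretes many clade A serpins, 3, 4, 3 and 4 were well above background, with sums from 0.33 to 0.42. The highest signal came from the AHSG probe in HN4_CR and from that of APOA1 on the other 3 arrays. ALB, APOB, TTR and FGB were dim on all 4. AHSG, dim in both parental lines, was called higher in both resistant lines. The bounds were at least 3.86-fold in HN4_CR and at least 2.13-fold in HN30_CR. No other gene of this list was called in either line.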

How the data were processed

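The authors' arrays were read with Agilent Feature Extraction 10.7.1.1, as the sample records state, on 1 slide in 1 scan, and the deposited intensity of each spot is background subtracted by that software. The deposited log2 table of the same 4 arrays had the same sorted values on every array, as quantile normalization leaves them, and was used as an alternative. From the intensity, log2 values minus the array's 75th percentile were computed, leaving out control spots and outlier spots and averaging spots of a probe. The probe with the highest mean of the 4 arrays stood for a gene. Between 55.3% and 63.6% of spots were well above background on an array, and no spot was saturated. The number of arrays, 1 per condition, limits precision.

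Called genes differed by more than 2 on the log2 scale, with a signal well above background on the brighter array. No test was made within a line. Across both lines, lmFit and eBayes of limma 3.58.1 in R 4.3.3 were used with Benjamini-Hochberg adjustment, tested on simulated data first. Tables were made with Python 3.11.15, numpy 2.4.6 and pandas 2.3.3. Most serpins with a signal were named, with 4 values where called, and of each related list the first gene and up to 4 called genes of largest difference. SPINK5 and TMPRSS2 were named in addition, after their values were seen. Members and lists were chosen with earlier results of these data known. Alternatives were normexp with an offset of 50, other scalings, other probe choices, a floor for dim signals, a pseudocount of 16, outlier spots kept, the deposited table, a threshold of 1 and a signal required on both arrays. Probe coordinates are hg19 per the file headers, and promoters are from RefSeq, GRCh38.p14. LYZ, CD68 and CST4 were not analysed here.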

Additional observations from a re-analysis of the deposited data

Results flagged for a closer look

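The resistant arrays of the 2 lines stood on opposite sides of their parents, past the threshold in both, for 4 genes named in the report. SERPINB3 differed by 2.07 in HN4_CR and by -3.25 in HN30_CR. SERPINB7 differed by 2.60 in HN4_CR and by -4.07 in HN30_CR. Outside the family, PI3 differed by 2.99 and -2.59, and KRT6A by 3.33 and -8.45, in the same order. With 1 array per condition, for each of these 4 genes the difference was not tested. SERPINB7 was dim in HN4 and HN30_CR, and SERPINB3 and KRT6A were dim in HN30_CR, so those values rest on bounds on these sides. With normexp, with the pseudocount and with a signal required on both arrays, 0 serpins were called in opposite directions. No share of all genes is given here for these settings.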

How the results depend on the processing

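Within a line, no paired analysis was possible because each group has 1 array; the limma fit pairs the arrays by line, with 1 residual degree of freedom. No called difference of a serpin changed sign under any alternative. Of 520 differences of single serpins under an alternative, 401 moved by less than 1 scanner SD and 119 by more. Of 196 counts and medians, 148 stayed within a factor of 1.5 (counts) or within the median scanner SD (medians) and 48 did not. These follow, with no cause tested. Except at the threshold of 1, no share of all genes called is given beside the counts. Whether serpins gained or lost calls more than other genes under those settings was not tested.

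With normexp, 1 serpin was called higher in HN4_CR (5 in the main processing), 1 higher and 1 lower in HN30_CR (2 and 4), 0 in opposite directions (2) and 0 higher in HN30 than in HN4 (1). The related genes were 4 higher and 5 lower in HN4_CR (9 and 9) and 2 higher in HN30_CR (16). The clade B median in HN4_CR was 0.24 (0.62), and that of the clades other than A and B 0.35 in HN4_CR (0.68) and 0.044 in HN30_CR (0.49). With the pseudocount of 16, 2 serpins were higher in HN4_CR, 1 higher in HN30_CR and 0 opposite, 4 related genes were higher in HN4_CR and 9 in HN30_CR, and the medians were 0.42 for clade B in HN4_CR and 0.26 for the other clades in HN30_CR.

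Scaling to array medians moved the median of all genes in HN30_CR from -0.07 to -0.49, and the 75th percentile over probes well above background on all arrays moved it to 0.30; the floor for dim signals moved it to -0.32. In HN4_CR it moved from -0.20 to -0.01 with quantile normalization and with the deposited table, to -0.04 with normexp and with the pseudocount, and to -0.10 with messenger RNA probes. Under array medians 1 serpin was higher in HN30_CR, related genes were 10 higher and 7 lower there, and the HN30_CR medians were -0.21 for clade A (0.20), -1.03 for clade B (-0.62) and 0.078 for the others. Under the percentile of bright probes these 3 medians were 0.57, -0.24 and 0.87. Quantile normalization and the deposited table gave 1 serpin higher in HN30_CR each, and 0.13 for the median of the other clades there. With dim signals at the floor, 5 related genes were higher in HN4_CR.

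At a threshold of 1, 8 serpins were higher and 2 lower in HN4_CR, 6 were higher in HN30_CR, 4 were opposite, 3 were called alike in both lines and 2 were lower in HN30 than in HN4; related genes were 19 higher and 22 lower in HN4_CR and 39 higher and 17 lower in HN30_CR. The shares of all genes at that threshold were 5.82% and 5.31% in HN4_CR, 12.9% higher and 8.71% lower in HN30_CR, 1.26% opposite, 3.84% alike and 4.30% lower in HN30 than in HN4. With a signal required on both arrays, 3 serpins were higher and 0 lower in HN4_CR, 1 was lower in HN30_CR and 0 were opposite, and related genes were 5 higher in HN4_CR and 10 in HN30_CR. The limma fit gave 0 genes passing in each of its 5 alternatives, with 1905 to 3250 genes at an unadjusted p under 0.05.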

Other observations

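Apart from the 35 genes, 22 probes carried a serpin gene's symbol inside a longer name, mostly long noncoding RNAs named after a neighbouring serpin. Of these, 6 were well above background on all 4 arrays and 13 on none. The 6 included the pseudogene SERPINB9P1, at -2.83 in HN4, -2.49 in HN4_CR, -3.18 in HN30 and -1.83 in HN30_CR. A probe of lnc-SERPINC1-1 stood at 3.53, 4.38, 3.58 and 5.20 on the same arrays, and a second probe of that name differed by -0.30 and -0.90. No difference of these probes was tested.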
